A study of Mus musculus with 2 samples.

Results

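Small leucine-rich proteoglycans are secreted proteins of the extracellular matrix, and tenomodulin (Tnmd) is a membrane glycoprotein of tendon and ligament cells. Described here are 9 genes of 31053 in the count table, taken by symbol: Dcn, Lum, Fmod, Aspn, Bgn, Ogn, Prelp, Omd and Tnmd. All 9 were found in both libraries. Their molecules were counted in cells of mouse back skin, 1 droplet single-cell RNA library per genotype. One library came from Chrna5-/- mice (KO), which lack the alpha5 subunit of the nicotinic acetylcholine receptor, and the other from wild-type mice (WT). Mice of both genotypes were female, aged 6 to 8 weeks, and received 62.5 mg of 5% imiquimod cream on shaved back skin on 6 days, with skin taken on day 7. Imiquimod activates Toll-like receptors and causes a psoriasis-like inflammation in mouse skin. The KO line had been crossed to C57BL/6N for more than 10 generations, and the labels name both C57BL/6N and C57BL/6J, without tying either to a library. Experimental groups had 5 mice, and whether a library pools several of them is not stated. Fat was scraped off, the skin was digested with collagenase, and live cells were sorted by exclusion of a dye. Skin that received the cream base is not analysed here.

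Small leucine-rich proteoglycans bind collagen fibrils through curved repeats and set fibril diameter and spacing. Class I members (Dcn, Bgn, Aspn) and class II members (Fmod, Lum, Prelp, Omd) differ in their repeats and sugar chains, and Ogn belongs to class III. Several also bind transforming growth factor beta, and soluble forms of Dcn and Bgn act on Toll-like receptors. In skin, Dcn and Lum are products of dermal fibroblasts, while Fmod and Tnmd are best known from tendon.

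The KO library held 10886 barcodes and the WT library 14557, with 123839924 and 147260653 unique molecules (UMIs). After filtering, 10233 KO cells and 13938 WT cells remained, with a median of 6374 and 4603 UMIs, and 49 barcodes occurred in both libraries. Chrna5 itself had 6 UMIs in KO cells and 12 in WT cells, too few to check the genotype labels. Cells were placed in classes by marker genes that include none of the 9 genes, and 38.1% of KO cells and 58.03% of WT cells fitted no class. Fibroblasts numbered 2631 in KO and 2164 in WT, which is 25.7% and 15.5% of the kept cells. With 1 library per genotype there is no replicate check and no test, and every interval below is a 95% interval for counting error only. A level is given as CPM, the UMIs of a gene per 1000000 UMIs summed over the cells of a class. A gene with at least 50 UMIs over both libraries was called higher at a KO over WT ratio of 1.5 or more, and lower at the inverse of 1.5 or less, where its interval left out 1.

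One set of fibroblasts carried most of the Fmod of both libraries. It was gated on a panel of tendon and fascia genes, and 5 of the 10 panel genes were at least 2-fold above the median of the gated classes. Mkx, a homeobox factor of tendon, reached 126 CPM in these KO cells and 109 CPM in these WT cells. Kera, the corneal proteoglycan keratocan, reached 88.9 CPM in KO and 46.0 CPM in WT, and Col11a1, a minor fibril collagen, 174 CPM in KO and 133 CPM in WT. The defining tendon genes were absent: Thbs4, Comp, Chad and Cilp2 had 0 UMIs in both libraries, and Scx had 2 UMIs in KO cells and 0 in WT cells. None of the 10 panel genes was among the 10 leading genes, those furthest above that median. These were Coch, Igfbp5, Gldn, Pi16, Col1a1, Cck, Sparc, Wif1, Twist1 and Olfml3. Most gated classes are not fibroblasts, and Col1a1 and Sparc were also among the 10 leading genes of the fibroblasts drawn by the Pi16 panel. Wif1, a gene of the dermal papilla panel, had 321 CPM in these KO cells and 395 CPM in these WT cells, beside 184 and 147 CPM in the cells gated as dermal papilla. Pi16 had 660 CPM in these KO cells and 951 CPM in these WT cells, beside 167 and 94.1 CPM in the fibroblasts drawn by the Pi16 panel. The cells are called Mkx and Kera fibroblasts here after genes of the gate, and not tendon cells. They numbered 261 in KO and 58 in WT, or 9.92% of KO fibroblasts (8.80 to 11.1%) and 2.68% of WT fibroblasts (2.04 to 3.45%). In tissue digested once per genotype, a share of cells depends on the dissociation as well as on the skin, and the parts of these cannot be told apart.

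The genes of the set lie close together on the mouse genome in 3 places (build mm10, GENCODE annotation of that build). Aspn (chr13:49544443-49567565), Omd (chr13:49582462-49592822) and Ogn (chr13:49608046-49624501) follow each other on the plus strand, 14.9 and 15.2 kb apart. Their neighbour Ecm2, another leucine-rich matrix gene, ends 11.7 kb before Aspn. All 4 lie within Cenpp on the minus strand, whose reads could be told apart only by a count that uses strand, and the labels do not state one. Dcn (chr10:97479609-97518143), Lum (chr10:97565128-97572703) and Kera follow each other on the plus strand, with gaps of 47.0 and 34.2 kb. Prelp (chr1:133910304-133921414, minus strand) and Fmod (chr1:134037254-134048277, plus strand) lie 116 kb apart. Bgn (chrX:73483602-73495933) and Tnmd (chrX:133850980-133865577) are both on the X chromosome, far from each other.

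The 250 bases before the RefSeq start (GRCm38.p6) are shown for the 4 genes most concentrated in the Mkx and Kera fibroblasts, each read 5′ to 3′ on the strand of its gene. Capitals mark the E-box letters CANNTG, searched on both strands (the motif reads the same on each), which basic helix-loop-helix factors such as Scx and Twist1 are known to bind. The windows are chr1:134037004-134037253 for Fmod, chr13:49544193-49544442 for Aspn, chr13:49607765-49608014 for Ogn and chrX:133850758-133851007 for Tnmd, all on the plus strand.
Fmod: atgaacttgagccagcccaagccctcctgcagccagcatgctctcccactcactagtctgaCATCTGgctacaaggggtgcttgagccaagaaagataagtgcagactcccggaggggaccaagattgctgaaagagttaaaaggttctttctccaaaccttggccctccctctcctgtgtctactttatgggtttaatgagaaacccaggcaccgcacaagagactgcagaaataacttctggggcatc
Aspn: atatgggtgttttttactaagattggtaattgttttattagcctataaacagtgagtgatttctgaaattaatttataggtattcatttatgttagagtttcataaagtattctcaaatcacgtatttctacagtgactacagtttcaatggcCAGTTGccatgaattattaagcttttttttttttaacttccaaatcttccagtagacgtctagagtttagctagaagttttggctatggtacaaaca
Ogn: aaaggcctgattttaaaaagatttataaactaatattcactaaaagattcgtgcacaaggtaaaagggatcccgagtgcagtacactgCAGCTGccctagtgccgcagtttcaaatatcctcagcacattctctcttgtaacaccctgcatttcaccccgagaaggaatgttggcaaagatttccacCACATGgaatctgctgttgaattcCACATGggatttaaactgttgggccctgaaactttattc
Tnmd: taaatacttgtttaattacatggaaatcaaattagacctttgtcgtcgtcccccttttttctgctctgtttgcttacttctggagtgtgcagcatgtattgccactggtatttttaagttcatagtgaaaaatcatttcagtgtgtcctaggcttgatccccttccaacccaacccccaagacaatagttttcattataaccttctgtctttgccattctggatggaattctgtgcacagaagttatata

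The Ogn window held 3 E-box matches, those of Fmod and Aspn 1 each, and that of Tnmd 0. Of the 7 genes with a RefSeq promoter in the table used (Dcn and Lum are not among them), 4 had at least 1 match: Fmod, Aspn, Bgn and Ogn. Of all 32851 promoter windows of that length, 66.2% had at least 1, so the letters do not set these genes apart. A match is a description of letters and not a binding site.

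**Figure D1:**
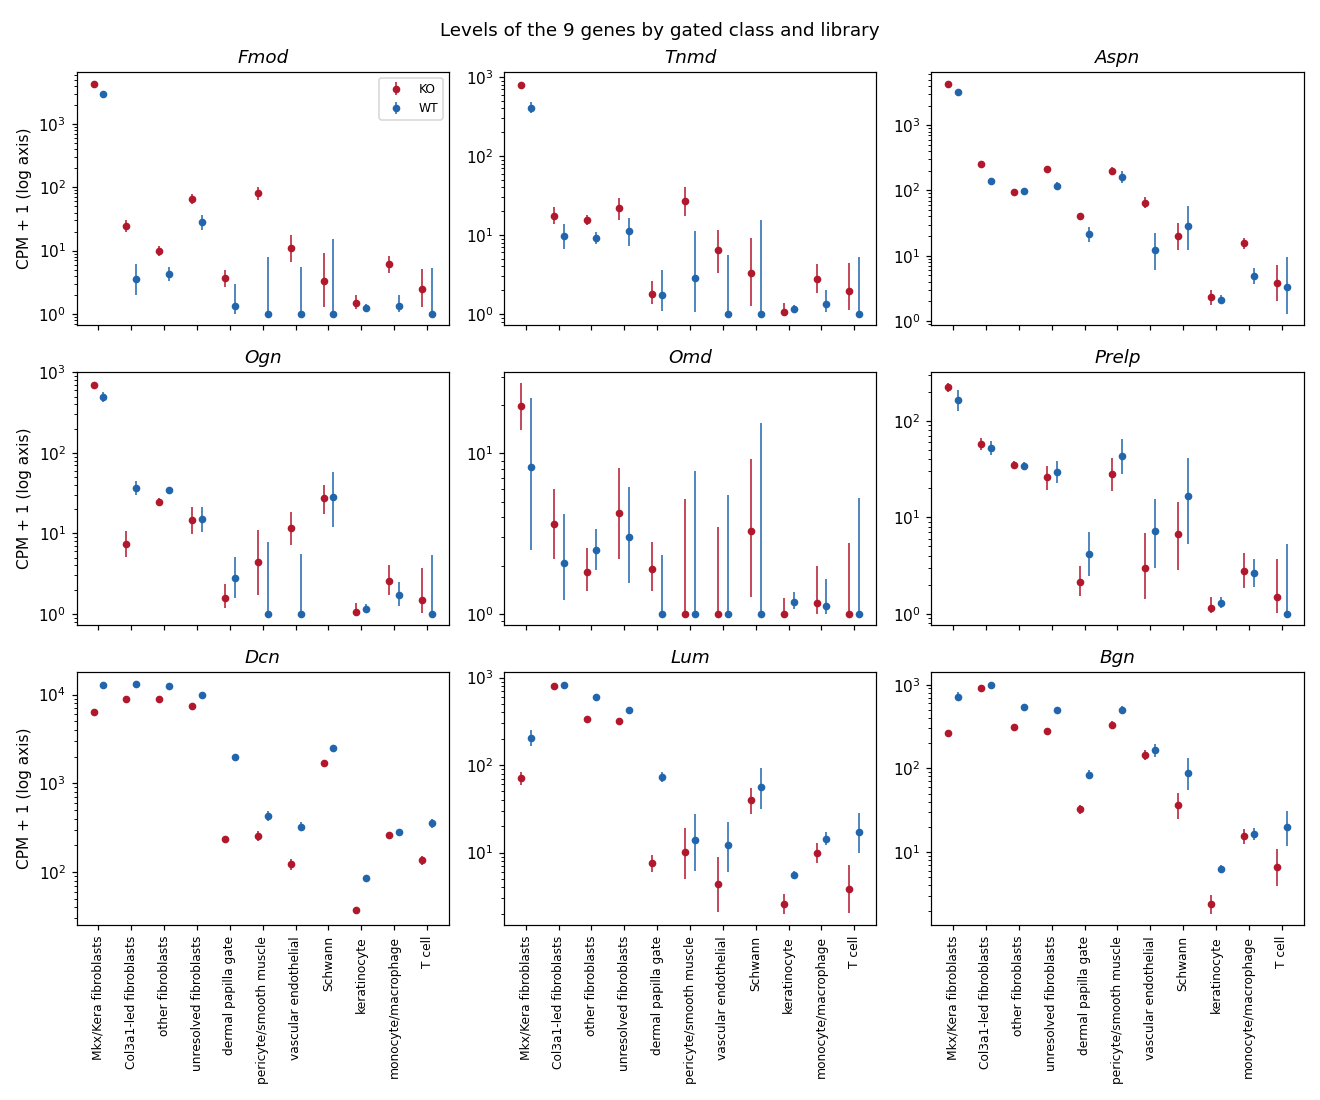
Level of each gene in CPM plus 1 (log axis) in 11 gated classes, KO points left of WT points in each class, with exact Poisson intervals. Fmod, Tnmd, Aspn and Ogn stand highest in the Mkx and Kera fibroblasts of both libraries (Fmod at 4299 CPM in KO and 3031 CPM in WT), while Lum stands highest in Col3a1-led fibroblasts.

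Fmod, or fibromodulin, holds collagen fibrils thin and guides their crosslinking. It stood at 4299 CPM in the KO Mkx and Kera fibroblasts (4203 to 4396) and at 3031 CPM in the WT ones (2865 to 3203). In all other fibroblasts together the level was 18.5 CPM in KO and 6.11 CPM in WT, so it was 232-fold higher in the Mkx and Kera fibroblasts of KO and 496-fold higher in those of WT. These cells held 96.3% of the fibroblasts' Fmod UMIs in KO and 92.7% in WT, while they held 10.1% and 2.49% of the fibroblasts' UMIs of all genes. In both libraries Fmod thus lay in the same gated cells, and the other fibroblasts had little of it.

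Tnmd, known from tendon, where it supports tenocyte growth and collagen order, had the same pattern. Its level was 788 CPM in the KO Mkx and Kera fibroblasts and 409 CPM in the WT ones. In the other fibroblasts it was 15.7 CPM in KO and 8.52 CPM in WT, a step of 50.2-fold in KO and 48.0-fold in WT. The Mkx and Kera fibroblasts held 84.9% of the fibroblasts' Tnmd UMIs in KO and 55.1% in WT. Over 30 points, each a class in 1 library with at least 50 cells, the gene most like Fmod was Tnmd (Pearson r = 0.983 of log2(CPM + 10)). The next were the collagen-binding integrin Itga11 (r = 0.973) and Clstn2 (r = 0.951). The points share 2 libraries, and the correlations are a description.

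Aspn, asporin, which competes with decorin for collagen and binds transforming growth factor beta, reached 4283 CPM in the KO Mkx and Kera fibroblasts and 3287 CPM in the WT ones. It was not confined to them. The other fibroblasts had 142 CPM in KO and 106 CPM in WT, a step of 30.2-fold in KO and 30.9-fold in WT. The Mkx and Kera fibroblasts held 77.2% of the fibroblasts' Aspn UMIs in KO and 44.1% in WT. Its closest genes across classes were Srpx2 (r = 0.951), Coch (r = 0.915) and its chromosomal neighbour Ecm2 (r = 0.909).

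Ogn, osteoglycin or mimecan, a regulator of fibril thickness, stood at 691 CPM in the KO Mkx and Kera fibroblasts and 494 CPM in the WT ones, 36.9-fold and 15.8-fold above the other fibroblasts. These cells held 80.5% of the Ogn UMIs of KO fibroblasts and 28.7% of those of WT fibroblasts. Ogn differed in this from Fmod, since in WT most of it lay outside the Mkx and Kera fibroblasts. Omd, osteomodulin, first known from bone matrix, was sparse, with 34 UMIs in these KO cells and 3 in these WT cells. Prelp, a basic proteoglycan that ties basement membranes to connective tissue, was the most even of the 6 genes. It had 221 CPM in KO and 162 CPM in WT, 5.84-fold and 4.56-fold above the other fibroblasts.

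Dcn, Lum and Bgn did not share this pattern. Dcn, decorin, which limits the lateral fusion of collagen fibrils, was in 99.6% of the KO Mkx and Kera fibroblasts and 100% of the WT ones, at 6395 CPM in KO and 12692 CPM in WT. That was 0.735 times the level of the other fibroblasts in KO and 1.04 times in WT. Lum, lumican, which sets fibril spacing in cornea and skin, stood at 70.02 CPM in the KO Mkx and Kera fibroblasts and 203 CPM in the WT ones. It was 0.161 times the level of the other fibroblasts in KO and 0.330 times in WT, and so lower there in both libraries. Bgn, biglycan, a relative of decorin found in many tissues, was 0.600 times the other fibroblasts in KO and 1.17 times in WT. Dcn and Lum were close to each other across the 30 points (r = 0.943), and Fmod and Lum were not (r = 0.274). Bgn was closest to the collagen genes Col5a2 (r = 0.949) and Col6a1 (r = 0.948).

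**Figure D2:**
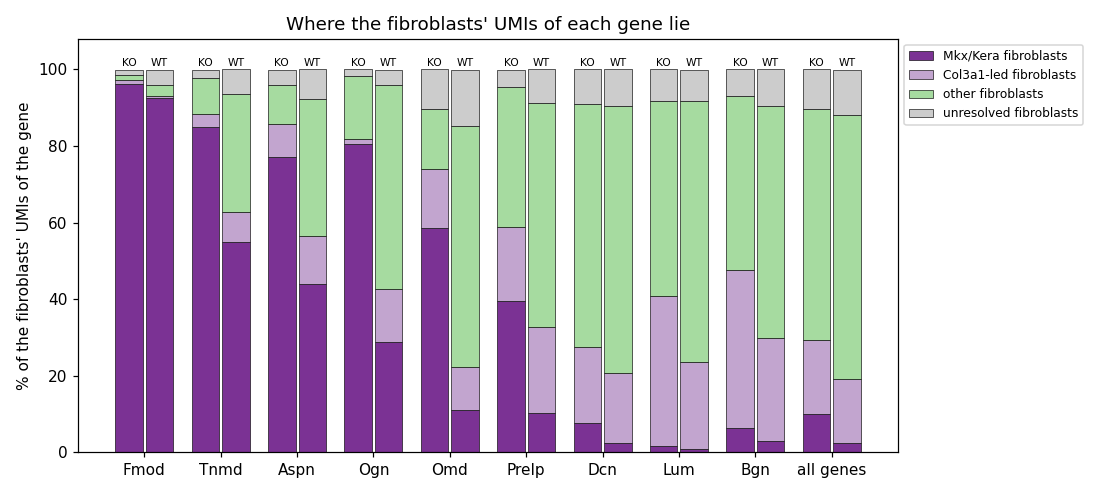
Share of the fibroblasts' UMIs of each gene, in percent, that lay in each fibroblast class, KO bar left of WT bar, with all genes together at the right. The Mkx and Kera fibroblasts held 96.3% of Fmod in KO and 92.7% in WT, against 10.1% and 2.49% of all UMIs.

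The same split appeared cell by cell. Fibroblasts with at least 5 Fmod UMIs numbered 200 in KO and 39 in WT, and fibroblasts with no Fmod UMI 2357 and 2103. Of the Fmod-bearing cells 184 in KO and 33 in WT were Mkx and Kera fibroblasts, so these shares largely describe the same cells again. A Tnmd UMI was present in 90.5% of the Fmod-bearing KO cells (85.6 to 94.2%) and in 92.3% of the WT ones (79.1 to 98.4%). Without Fmod the shares were 7.68% in KO and 4.71% in WT. Ogn was in 80% of the Fmod-bearing KO cells and 66.7% of the WT ones, against 8.19% and 12.2% of the cells without Fmod. Aspn was in 99% of Fmod-bearing KO cells and 100% of WT ones, against 33.6% and 31% without Fmod.

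Lum went the other way in both libraries. A Lum UMI was found in 24% of the Fmod-bearing KO cells (18.3 to 30.5%) and 12.8% of the WT ones (4.30 to 27.4%). In cells without Fmod it was found in 68.8% of KO cells and 75.8% of WT cells. The median depth was 7094 UMIs in KO and 6614 in WT for the Fmod-bearing cells, and 6542 and 7399 for the others, so depth was similar. In keratinocytes, which should lack these genes, a Fmod UMI was in 1.56% of KO cells and 0.887% of WT cells at median depths of 27783 and 39154 UMIs, and a Lum UMI in 2.67% and 7.36%.

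**Figure D3:**
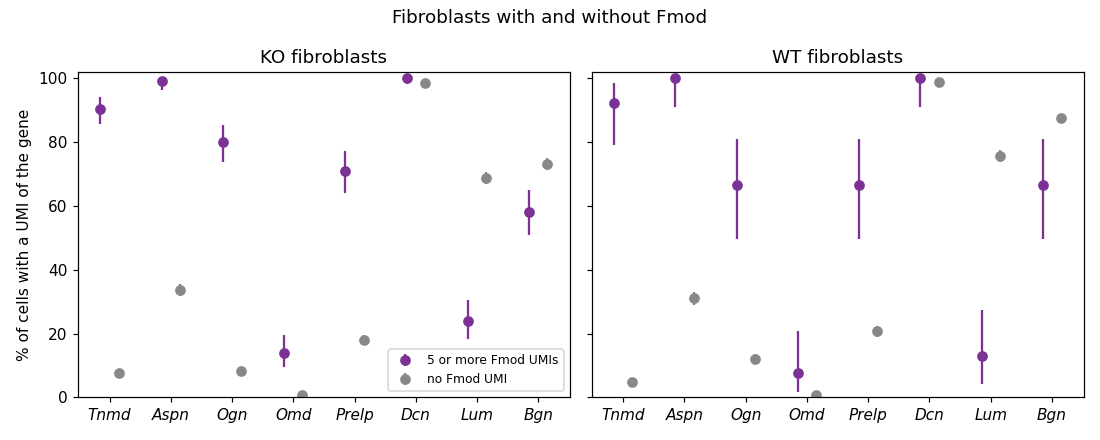
Share of fibroblasts with a UMI of each of 8 genes, in percent with exact binomial intervals, for cells with 5 or more Fmod UMIs (purple) and with none (grey), KO panel left of WT panel. Tnmd was in 90.5% and Lum in 24% of the Fmod-bearing KO cells, and in 92.3% and 12.8% of the WT ones.

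Over all fibroblasts, 5 of the 9 genes were called higher in the KO library and 1 lower, and 3 were not called. In the same comparison 12.7% of the 11101 genes measured were called higher and 6.81% lower. Fmod had 450 CPM in KO fibroblasts and 81.3 CPM in WT fibroblasts, a ratio of 5.53 (5.22 to 5.86). Tnmd had 93.5 CPM in KO and 18.5 CPM in WT, a ratio of 5.06 (4.48 to 5.73). Aspn had 559 CPM in KO and 186 CPM in WT, a ratio of 3.01 (2.90 to 3.14). These were the 3 highest ratios of the 9.

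Ogn had 86.5 CPM in KO and 42.7 CPM in WT, a ratio of 2.02 (1.85 to 2.22). Omd had 58 UMIs in KO and 27 in WT, a ratio of 2.00 (1.25 to 3.28). Prelp had 56.3 CPM in KO and 38.7 CPM in WT, a ratio of 1.46 (1.32 to 1.61), and was not called. The median log2 ratio of the 9 genes was 1.00, beside 0.09 for all genes measured. The median describes these genes and is not a test.

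The abundant dermal genes were lower in KO fibroblasts, near the call line. Lum had 397 CPM in KO and 606 CPM in WT, a ratio of 0.655 (0.636 to 0.676), and was the 1 gene called lower. Bgn had 418 CPM in KO and 618 CPM in WT, a ratio of 0.677 (0.657 to 0.697). Dcn had 8474 CPM in KO and 12204 CPM in WT, a ratio of 0.694 (0.690 to 0.699). Neither Bgn nor Dcn was called, though their intervals lie below 1.

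**Figure D4:**
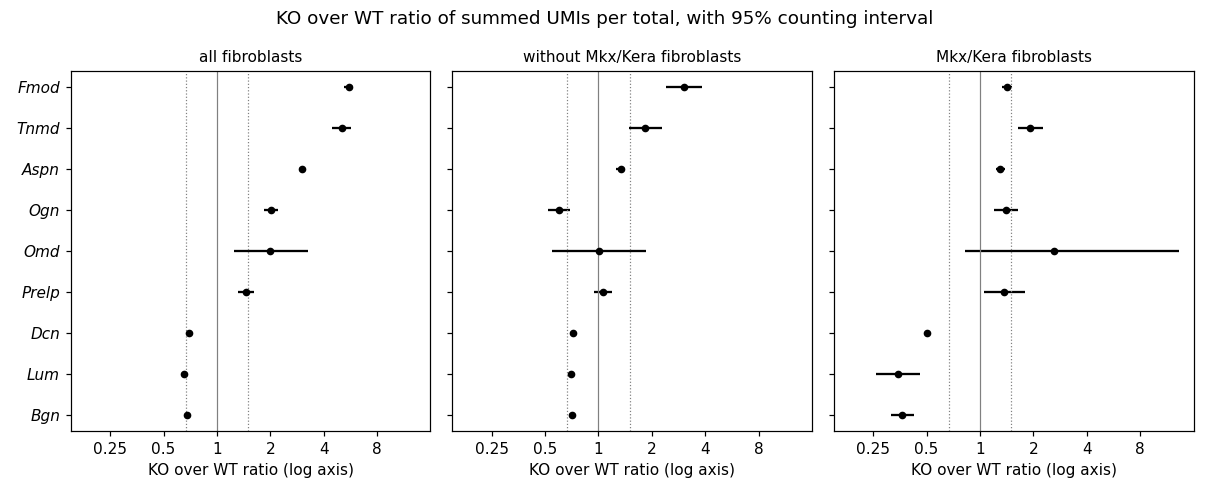
KO over WT ratio of each gene (log axis) with its 95% counting interval in all fibroblasts, without the Mkx and Kera fibroblasts, and within them. The solid line marks 1 and the dotted lines the 1.5-fold call. Fmod goes with a ratio of 5.53 in all fibroblasts, 3.03 without these cells and 1.42 within them.

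How much of this went with the number of Mkx and Kera fibroblasts was measured in several ways. Without these cells, 2 of the 9 genes were called higher (Fmod and Tnmd) and 1 lower (Ogn), beside 11.2% of all genes higher and 6.95% lower. Fmod then had 18.5 CPM in KO and 6.11 CPM in WT, a ratio of 3.03, and Tnmd a ratio of 1.84. Of these Fmod UMIs, 200 of 297 in KO lay in 16 of 2370 cells and 71 of 99 in WT in 6 of 2106 cells, each with at least 5 of them. Aspn had a ratio of 1.33 and was not called. Ogn turned round, to a ratio of 0.600 (0.519 to 0.693), and Prelp stood at 1.07. Omd had too few UMIs to be measured there. The ratios of Dcn (0.714), Lum (0.704) and Bgn (0.708) kept their direction without these cells, though Lum was no longer called.

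When the KO level was instead computed with the fibroblast classes in their WT proportions, the ratio became 1.53 for Fmod, 1.29 for Aspn, 0.845 for Ogn and 1.89 for Tnmd. The ratio was 0.708 for Dcn, 0.668 for Lum and 0.658 for Bgn. The proportions of the classes thus moved the ratios of Fmod, Tnmd, Aspn and Ogn by over 1.5 times, and those of Dcn, Lum and Bgn by little.

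Within the Mkx and Kera fibroblasts, 1 of the 9 genes was called higher (Tnmd) and 3 lower (Dcn, Lum and Bgn), beside 11% of the 4972 genes measured called higher and 6.58% lower. Tnmd had a ratio of 1.93 (1.64 to 2.27). Fmod had a ratio of 1.42 (1.34 to 1.51), Ogn 1.40 (1.21 to 1.63), Prelp 1.36 (1.05 to 1.79) and Aspn 1.30 (1.23 to 1.38), none of them called. Dcn stood at 0.504 times the WT level (0.488 to 0.521), Bgn at 0.364 times (0.314 to 0.422) and Lum at 0.344 times (0.259 to 0.459). The values for Bgn and Lum were closer to 1 in the cluster that holds most of these cells, where Bgn was not called.

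The gate drew cells of mixed kind, and more so in WT. No Fmod UMI was found in 59 of the 261 KO cells and 21 of the 58 WT cells. The median cell had 3861 CPM of Fmod in KO and 1937 CPM in WT. Clustering of all cells without the 9 genes gave a second view. Cluster 14 held 153 of the KO Mkx and Kera fibroblasts and 28 of the WT ones, among 156 and 30 cells in all. In it Fmod had 5960 CPM in KO and 5214 CPM in WT, a ratio of 1.14 (1.08 to 1.22), and Aspn a ratio of 0.973 (0.916 to 1.03). Ogn had a ratio of 1.09 (0.938 to 1.27), and Tnmd had 1104 CPM in KO and 673 CPM in WT, a ratio of 1.64 (1.39 to 1.95). Dcn, at 6363 CPM in KO and 11943 CPM in WT, had a ratio of 0.533 (0.510 to 0.557). Bgn, at 176 CPM in KO and 248 CPM in WT, had a ratio of 0.711 (0.529 to 0.969). Lum, with 52 UMIs in KO and 19 in WT, had a ratio of 0.516 (0.300 to 0.924). In this cluster Tnmd was higher and Dcn and Lum lower in KO past the 1.5-fold line. Fmod, Aspn, Ogn, Bgn and Prelp (ratio 1.16, 0.865 to 1.58) stood within 1.5-fold of their WT level. Omd had too few UMIs, with 25 in KO and 3 in WT. The share of all genes past that line was not tallied for the cluster.

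**Figure D5:**
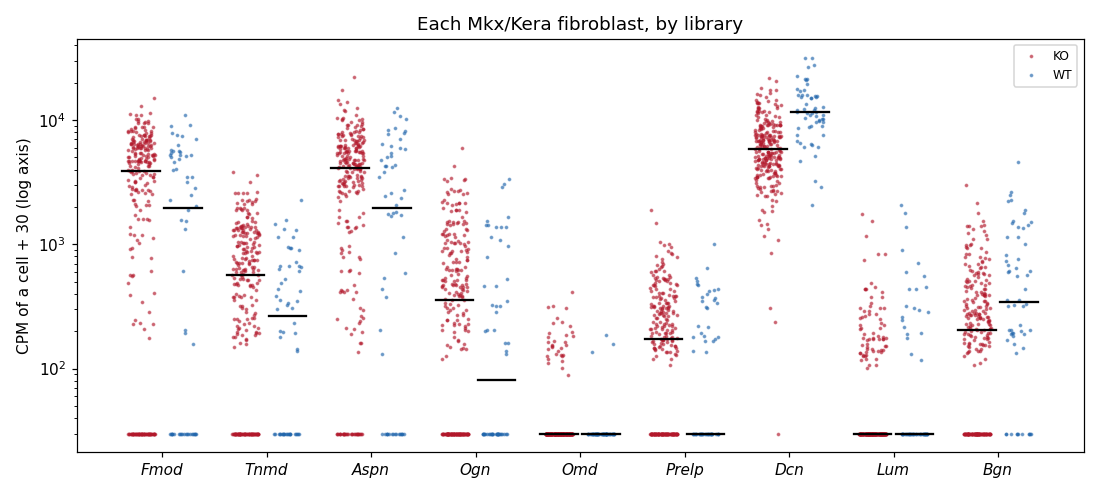
Level of each gene in each Mkx and Kera fibroblast, in CPM of the cell plus 30 (log axis), KO points left of WT points, with black lines at the medians. The points at the bottom are cells with no UMI of the gene. They include 59 of 261 KO cells and 21 of 58 WT cells for Fmod, and Dcn was found in all but 1 of the KO cells and in all of the WT cells.

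The remaining fibroblasts were split by a panel of Pi16 and Dpp4 genes. The cells drawn by that panel (479 in KO, 354 in WT) were led by Col3a1, Col1a1 and Mmp2 and are called Col3a1-led, and those drawn by neither panel (1531 and 1397) were led by Tnfaip6, Mmp2 and Thbs2. A further 360 KO and 355 WT fibroblasts stayed unresolved between the classes. They held 118 of the 297 Fmod UMIs outside the Mkx and Kera fibroblasts in KO, and 54 of 99 in WT. Their ratio was 2.37 for Fmod, 2.06 for Tnmd, 1.81 for Aspn and 0.565 for Bgn, while Dcn, Lum, Ogn and Prelp were not called. The shares of all genes called were not tallied for the unresolved fibroblasts, and their median log2 ratio over all genes measured was 0.08. In the Col3a1-led fibroblasts 3 of the 9 genes were called higher (Fmod, Aspn and Tnmd) and 2 lower (Dcn and Ogn), beside 11.8% of all genes higher and 6.24% lower. Of the 82 Fmod UMIs of these KO cells 51 lay in 1 cell, and WT cells had 7. The Fmod ratio was 9.45 (4.38 to 24.2) with that cell and 3.59 (1.55 to 9.65) without it. Aspn had 250 CPM in KO and 139 CPM in WT, a ratio of 1.80 (1.60 to 2.04). Ogn had 22 UMIs in KO and 99 in WT, a ratio of 0.179 (0.108 to 0.287). The class was made up differently in the libraries, with 244 KO cells in cluster 3, 200 in cluster 5 and 0 in cluster 25, against 209, 55 and 73 WT cells. All WT cells of cluster 25 together had 38.1 CPM of Ogn. Ogn had 6.06 CPM in KO and 13.6 CPM in WT in cluster 3, and 35.4 CPM in KO and 13.2 CPM in WT in cluster 5, over all cells of each cluster. Cluster 5 also held 93 KO and 21 WT Mkx and Kera fibroblasts. Its KO cells had 161 Ogn UMIs, beside 22 in all KO Col3a1-led fibroblasts, so its KO level largely describes other cells. The part of this make-up in the Ogn ratio was not tested. Lum was 807 CPM in KO and 826 CPM in WT, a ratio of 0.978 (0.925 to 1.03), so the lower Lum of the fibroblasts as a whole was not seen in these cells.

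In the fibroblasts drawn by neither panel 2 genes were called higher (Fmod and Tnmd) and 2 lower (Lum and Bgn), beside 10% of all genes higher and 9.23% lower. Lum had 335 CPM in KO and 599 CPM in WT, a ratio of 0.558 (0.536 to 0.581). Bgn had 315 CPM in KO and 544 CPM in WT, a ratio of 0.579 (0.555 to 0.604). Fmod was sparse, at 8.98 CPM in KO and 3.32 CPM in WT, in 2.22% of these KO cells and 0.716% of these WT cells. The KO cells of this class lay mostly in cluster 4 (657 cells) and cluster 3 (530), and the WT cells in cluster 25 (784) and cluster 3 (264). Cluster 25 held 25 KO and 1099 WT cells, and cluster 4 held 922 and 197, so each came largely from 1 library.

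In the fibroblasts of clusters to which each library gave at least 20% of the cells, the ratio was 0.922 for Lum, 0.767 for Bgn and 0.730 for Dcn, and none of the 9 genes was called lower. Of the 9 genes 3 were called higher there: Fmod at 2.72 (2.31 to 3.23), Aspn at 2.19 (2.025 to 2.375) and Tnmd at 1.80 (1.40 to 2.35). The shares of all genes called were not tallied for these cells. The ratio of Ogn there was 1.22 (0.955 to 1.58). Clusters 3 and 5 are among these clusters, and clusters 4 and 14 are not. Cluster 5 held 93 KO and 21 WT Mkx and Kera fibroblasts, so some of those cells remain. Cluster 14 held 85.4% of the Fmod UMIs of KO cells and 74.9% of those of WT cells, and 67.6% and 23.5% of the Ogn UMIs. In cluster 3 Dcn had 10693 CPM in KO and 14854 CPM in WT. In cluster 5 it had 6364 CPM in KO and 8379 CPM in WT, and in cluster 4 8281 and 9668 CPM. Dcn was thus lower in KO in clusters 3, 4 and 5. Lum had 680 CPM in KO and 789 CPM in WT in cluster 3, 213 and 281 CPM in cluster 4, and 286 and 227 CPM in cluster 5, where the order turned.

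Pericytes and smooth muscle cells, which wrap vessels and were led by Tagln, Acta2 and Rgs5, carried Bgn and Aspn. Bgn had 332 CPM in the 174 KO cells and 499 CPM in the 57 WT cells, a ratio of 0.665 (0.562 to 0.788). Aspn had 200 CPM in KO and 163 CPM in WT, a ratio of 1.23 (0.944 to 1.60). Markers of other cell types differed too: the summed keratinocyte panel was 377 CPM in KO pericytes and 2110 CPM in WT ones, the macrophage panel 272 and 77.6 CPM, and the skeletal muscle panel 62.7 and 5.54 CPM. Their part in the Bgn ratio was not tested. There were 131 Bgn UMIs per 100 Dcn UMIs in KO pericytes and 117 in WT pericytes, against 4.94 and 5.07 in fibroblasts. In this class 1 gene was called higher (Fmod) and 2 lower (Bgn and Dcn), beside 12.8% of all genes higher and 10.9% lower. Of the 71 Fmod UMIs of KO pericytes 67 lay in 1 cell, and WT pericytes had 0, so the Fmod call rests on that cell.

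Vascular endothelial cells had Bgn at 142 CPM in the 121 KO cells and 163 CPM in the 61 WT cells, with 118 and 50.4 Bgn UMIs per 100 Dcn UMIs. Aspn was called higher, at 64.4 CPM in KO and 11.1 CPM in WT, and Dcn lower, beside 13.7% of all genes higher and 10.9% lower. Of the 96 Aspn UMIs of KO cells 33 lay in 1 cell. The summed level of the pericyte panel in this class was 1526 CPM in KO and 649 CPM in WT, and its part in the Aspn difference was not tested.

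Cells gated as dermal papilla, the mesenchyme at the base of the hair follicle, held less of the 9 genes than fibroblasts did. In the gate Dcn had 235 CPM in KO and 1955 CPM in WT, a ratio of 0.120 (0.114 to 0.126). Lum had a ratio of 0.0902 (0.0660 to 0.1215), Bgn 0.378 (0.316 to 0.451) and Aspn 1.97 (1.49 to 2.66). The median depth in the gate was 18625 UMIs in KO and 4462 in WT. Of the gated cells 260 of 295 KO cells and 213 of 272 WT cells lay in cluster 1. Another 37 of the WT cells lay in the fibroblast cluster 25, so cluster 1 as a whole (508 KO and 639 WT cells) is also given. In it Dcn had 97.7 CPM in KO and 398 CPM in WT, a ratio of 0.246 (0.226 to 0.267). Depth differed between these cells, with a mean of 18700 UMIs per cell in KO and 5906 in WT (medians 3755 and 3092), while Dcn had 1.83 UMIs per cell in KO and 2.35 in WT. The part of depth in the Dcn ratio and in the ratios of the gate was not tested. In cluster 1 Aspn was level, at 40.8 CPM in KO and 40.5 CPM in WT, a ratio with an interval of 0.833 to 1.22. Bgn had 34.2 CPM in KO and 28.6 CPM in WT there, a ratio whose interval includes 1. The Aspn and Bgn differences of the gate were thus not seen in the cluster.

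Schwann cells, the glia of skin nerves, had Dcn at 1674 CPM in 232 KO cells and 2507 CPM in 58 WT cells, a ratio of 0.668 (0.608 to 0.734). They held 2.32 Lum UMIs per 100 Dcn UMIs in KO and 2.20 in WT, beside 4.69 and 4.97 in fibroblasts, and 2.11 Bgn UMIs in KO and 3.46 in WT, beside 4.94 and 5.07. Single cells held 15 of the 34 Lum UMIs in KO and 159 of the 636 Dcn UMIs in WT.

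Keratinocytes and macrophages should lack these genes. Per 100 Dcn UMIs, keratinocytes had 3.82 Bgn UMIs in KO and 6.41 in WT, beside 4.94 and 5.07 in fibroblasts. Macrophages had 5.61 in KO and 5.64 in WT. Fmod was scarcer beside Dcn than in fibroblasts, with 1.34 UMIs per 100 of Dcn in KO keratinocytes, 1.98 in KO macrophages and 5.31 in KO fibroblasts. In WT there were 0.274 in keratinocytes, 0.125 in macrophages and 0.666 in fibroblasts. Dcn was 35.8 CPM in KO keratinocytes and 83.5 CPM in WT ones, and these low values are not read as expression. Their source was not tested. The Aspn of KO macrophages (82 UMIs) lay mostly in 1 cell, with 49 of them.

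Other genes of collagen assembly were described from lists of known roles. Those lists overlap the gating panels in Mkx, Kera, Thbs4, Col1a1, Col3a1, Col11a1 and Col12a1 among others, so the counts are descriptions. In all fibroblasts the median log2 ratio was 1.11 for other leucine-rich proteoglycans, 0.95 for tendon genes, 0.37 for collagens and 0.16 for partners and receptors. It was 0.04 for sugar chain synthesis, -0.03 for crosslinking and -0.25 for proteases, beside 0.09 for all genes measured. Of all genes measured in all fibroblasts 12.7% were called higher and 6.81% lower, and within the Mkx and Kera fibroblasts 11% and 6.58%, beside which the counts below stand. Of 10 other leucine-rich proteoglycans 5 were measured in all fibroblasts, with 3 higher and 1 lower. Kera had 9.12 CPM in KO and 1.20 CPM in WT, a ratio of 7.58 (4.75 to 12.7), and Ecm2 2.91. Podn, podocan, was the 1 called lower, at 0.632 times the WT level. Within the Mkx and Kera fibroblasts Ecm2 had 212 CPM in KO and 89.6 CPM in WT, a ratio of 2.36 (1.68 to 3.41).

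Of 11 tendon transcription factors and genes 5 were measured in all fibroblasts and 4 were higher. Egr1, an immediate early factor, had 2376 CPM in KO and 1042 CPM in WT, a ratio of 2.28. Thbs4, which was absent from the Mkx and Kera fibroblasts, had 98 UMIs in KO and 26 in WT, a ratio of 3.51. Of 13 fibrillar and fibril-associated collagens 5 were higher and 0 lower (all genes 12.7% and 6.81%), with Col11a1 at 4.04, Col3a1 at 2.05 and Col6a3 at the low end at 0.755. In all fibroblasts together the collagen genes and the small proteoglycans did not all go one way. Col1a1 (ratio 1.92), Fmod and Aspn were higher while Dcn and Lum were lower. Classes differed in this. The summed fibroblast panel, which includes Col1a1 and Col3a1, was 12989 CPM in KO and 8385 CPM in WT in Col3a1-led fibroblasts. In those drawn by neither panel it was 2542 and 2739 CPM.

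Of 15 genes of collagen crosslinking and processing 14 were measured and 1 was called, Plod2, a lysyl hydroxylase, with a ratio of 4.23 (3.13 to 5.81). Lox, lysyl oxidase, had 470 CPM in KO and 482 CPM in WT, a ratio of 0.975. Within the Mkx and Kera fibroblasts 4 of 11 measured were higher and 1 lower (all genes 11% and 6.58%), with Loxl1 at 4.34 (2.31 to 9.20) and Pcolce2 at 0.318. Of 22 genes of sugar chain synthesis 18 were measured, with 2 higher (Chst14 at 1.78 and Dse at 1.51, both of dermatan sulfate) and 1 lower (Csgalnact1 at 0.564).

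Of 16 partners and receptors 4 were higher and 1 lower in all fibroblasts. Ctgf, a matricellular protein, had 2304 UMIs in KO and 282 in WT, a ratio of 7.60 (6.71 to 8.63). Cd44, a hyaluronan receptor, had a ratio of 1.60, and Cd14, a Toll-like receptor partner, 0.426. Of 11 proteases known to cleave these proteins 1 was higher (Htra1 at 1.57) and 4 lower, including Mmp14 at 0.552 and Mmp3 at 0.621. Mmp12, of macrophages, had 5 UMIs in KO fibroblasts and 64 in WT ones. The summed macrophage panel, which includes Cd14, was 52.6 CPM in KO fibroblasts and 107.0 CPM in WT ones. The part of macrophage RNA in the Mmp12 and Cd14 values was not tested. Within the Mkx and Kera fibroblasts 0 of 8 measured proteases were higher and 5 lower, with Mmp3 at 42.8 CPM in KO and 351 CPM in WT, a ratio of 0.122 (0.0912 to 0.162). There 11% of all genes were higher and 6.58% lower. Mmp3 was among the 10 leading genes of the fibroblasts drawn by neither panel, and the macrophage panel was 25.01 CPM in KO Mkx and Kera fibroblasts and 87.2 CPM in WT ones. The part of mixed cells in the protease values was not tested.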

How the data were processed

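Back skin treated with imiquimod gave 1 library of single cells per genotype. The authors deposited raw counts of UMIs for each gene in each barcode, not normalized. Per the submitters' processing notes, Cell Ranger 3.0.2 and Seurat 3.0 are listed with build mm10, while the matrix header names software version 3.1.0. Every deposited barcode held at least 500 UMIs. Cells were kept with 200 genes or more detected and a mitochondrial share of UMIs up to 10%. Cells were gated on fixed marker panels without the 9 genes: seed cells led a panel by 1 log2 unit, and each cell then went to the class with the highest multinomial likelihood (log2 margin 10, or 3 between fibroblast classes). This scoring rule was chosen after the data were seen, and 492 KO and 522 WT cells lay near a gate. The members and gene lists were chosen with earlier results of these data known. Doublets were not removed in the values reported, and an alternative removed the highest Scrublet scores (scanpy 1.11.5).

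Counts were summed per class and library. Ratios have exact conditional 95% intervals, levels exact Poisson intervals, and shares exact Clopper-Pearson intervals (scipy 1.17.1). The calls were tested before use on simulated sums that held counting error only. That test checks the calculation, and not the spread between cells or animals. The genes to be named from each list were its most abundant gene and those with its highest and lowest ratio. Not all of these are given for every list, and the lowest ratio of the tendon genes is left out. Further called genes were chosen after their values were seen, so the named genes lean towards called ones. Likeness used genes reaching 50 CPM in some class and leaving out gating genes. Clusters (2000 variable genes, 30 principal components, 15 neighbours, Leiden resolution 1) were built without the 9 genes. Alternatives changed the gate, scale, depth, filters, doublets, weighting, free RNA and call rule.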

Additional observations from a re-analysis of the deposited data

Results flagged for a closer look

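The Ogn ratio had opposite directions in different gated classes of fibroblasts. Its KO over WT ratio was 1.40 in the Mkx and Kera fibroblasts, 0.179 in the Col3a1-led fibroblasts and 0.711 in the fibroblasts drawn by neither panel, each with an interval that leaves out 1. The difference between the classes was not tested. In cluster 14, which holds most Mkx and Kera fibroblasts, the ratio was 1.09 with an interval that includes 1 (0.938 to 1.27). In the fibroblasts of clusters to which each library gave at least 20% of the cells it was 1.22 (0.955 to 1.58). Cluster 14 is not among those clusters, and cluster 5, with 93 KO and 21 WT Mkx and Kera fibroblasts, is. Of the Col3a1-led fibroblasts 0 KO cells and 73 WT cells lay in cluster 25, where all WT cells together had 38.1 CPM of Ogn, and the part of this in the 0.179 was not tested.

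Cells that fitted no class also held the 9 genes. In them Fmod had 6.78 CPM in KO and 3.69 CPM in WT (ratio 1.84), Aspn 25.5 CPM in KO and 10.4 CPM in WT (ratio 2.46), and Tnmd 2.06 CPM in KO and 0.854 CPM in WT (ratio 2.42). Other genes went the other way, with a ratio of 0.507 for Dcn, 0.378 for Lum and 0.419 for Bgn. Ogn (0.998) and Prelp (0.891) were not called, and Omd had too few UMIs. The median log2 ratio of all genes measured in these cells was 0.02. The shares of all genes called each way were not tallied for them, so these calls stand without a background share.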

How the results depend on the processing

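Genes called higher in fibroblasts numbered 5 in each of 10 other settings (gate, scale, depth, filters, doublets, weighting, free RNA, cells of at least 1000 UMIs) and 4 at a 2-fold call. They were 2 without the Mkx and Kera fibroblasts and 3 in clusters to which each library gave at least 20% of the cells. These 2, the 1000 UMI setting and the leaving out of 1 Fmod-rich Col3a1-led cell were chosen after seeing the data. The 20% rule leaves out cluster 14, which held 85.4% of the Fmod UMIs of KO cells and 74.9% of those of WT cells. It keeps cluster 5, with 93 KO and 21 WT Mkx and Kera fibroblasts. The 1 gene called lower became 2 in Leiden clusters named from the same markers, 3 on a median ratio scale (which shifts all log2 ratios by 0.09), 0 with each cell weighed the same, 0 at a 2-fold call and 0 in the shared clusters. The ratio of Ogn reversed, to 0.600, without the Mkx and Kera fibroblasts. Over all alternatives the ratio in all fibroblasts ran over 2.72 to 5.57 for Fmod, 1.80 to 5.91 for Tnmd and 0.614 to 0.922 for Lum. The cause of these shifts was not tested, beyond the cells that each alternative leaves out. No paired analysis was possible because each genotype has 1 library. Depth limited Omd, with 58 UMIs in KO fibroblasts and 27 in WT ones, and the 58 WT Mkx and Kera fibroblasts limit every value within them.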
